A study of Mus musculus with 4 samples.

Results

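Cluster 7 is 1 of 8 mature luminal (ML) clusters into which the deposited table divides the luminal epithelial cells of the mouse mammary gland. It is the largest of them with both genotypes pooled, but not in the controls alone. Its members were taken from the row of cluster numbers that the authors deposited with the table, and they were 4868 of 32439 cells (1294 in WT library A, 1299 in WT library B, 1093 in mutant library A and 1182 in mutant library B). The deposited class of all of them was mature luminal, and 18932 further cells carried that class in clusters 4, 5, 6, 8, 9, 10 and 11. Both groups were C57BL/6N mice of 6 weeks of age with the MMTV-Cre transgene, whose promoter drives Cre in mammary epithelium, so the controls carried Cre as well. WT stands for *ErbB3*+/+;MMTV-Cre and mutant for *ErbB3*V943R/V943R;MMTV-Cre, in which Cre switches on a dormant exon of the endogenous *Erbb3* gene that encodes the V943R substitution. Glands of 3 mice per genotype were pooled, sorted for luminal cells and loaded as 2 libraries of the 10x 3′ chemistry, so each genotype was 1 pool. The libraries of a genotype repeat that pool, their spread is technical, no test between genotypes was possible, and the 95% intervals given here cover counting error only.

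Mature luminal cells are the hormone-sensing cells of the mammary ducts. They express the receptors for oestrogen, progesterone and prolactin and pass hormonal signals on to neighbouring cells through secreted ligands such as amphiregulin. ERBB3 is a pseudokinase receptor of the EGF receptor family that binds neuregulins and signals by activating a partner kinase, above all ERBB2, and the V943R substitution lies in the surface through which it activates that partner.

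The deposited values were returned to UMIs (unique molecular identifiers, the tags that let every captured mRNA be counted 1 time) as described under the processing. The median cluster 7 cell of the WT libraries had 3421 and 4081 UMIs, that of the mutant libraries 4004 and 4591.5, so 1 mutant library lay between the WT libraries. With each cell cut down at random to 1000 UMIs (thinning), the median cluster 7 cell had 662 and 668 detected genes in WT, against 663 and 667 in the mutant. Mitochondrial transcripts were 0.199% of a cell's UMIs at the median. A high doublet score was given to 4.67% of the WT cells and 2.37% of the mutant cells of cluster 7. Of the cell barcodes, 511 were found in more than 1 library and marked 1027 cells, 152 of them in cluster 7.

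Cluster 7 made up a larger part of the mutant sample than of the WT sample. It held 13.4% of the cells of WT library A (95% interval 12.8 to 14.1) and 14.4% of WT library B (13.7 to 15.2), against 16% of mutant library A (15.1 to 16.8) and 17% of mutant library B (16.1 to 17.9). Both mutant libraries were above both WT libraries, and the share of the mutant sample was 1.18 times that of WT (1.13 to 1.25). Among ML cells alone the shares were 17.6% and 19% in WT, against 22.9% and 24.5% in the mutant, a ratio of 1.30 (1.23 to 1.36). Another ML cluster, cluster 11, held 15.4% of the cells in WT but 4.85% in the mutant, and shares of 1 sample are not independent of each other. The ratio of mutant over WT was above 1 in clusters 9 (1.40), 6 (1.15), 5 (1.10) and 8 (1.09) and below 1 in clusters 4 (0.951) and 10 (0.936). The part of cluster 11 in these ratios was not tested. In WT, clusters 11 and 10 (14.5%) were larger than cluster 7 (13.9%). Counted among the cells outside cluster 11, cluster 7 held 15.8% and 17.1% in WT, against 16.7% and 17.9% in the mutant. The libraries of the genotypes then overlapped, and the ratio was 1.05 (1.00 to 1.11). Among ML cells outside cluster 11, a denominator chosen after the data had been seen, it was 1.11 (1.06 to 1.17).

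**Figure D1:**
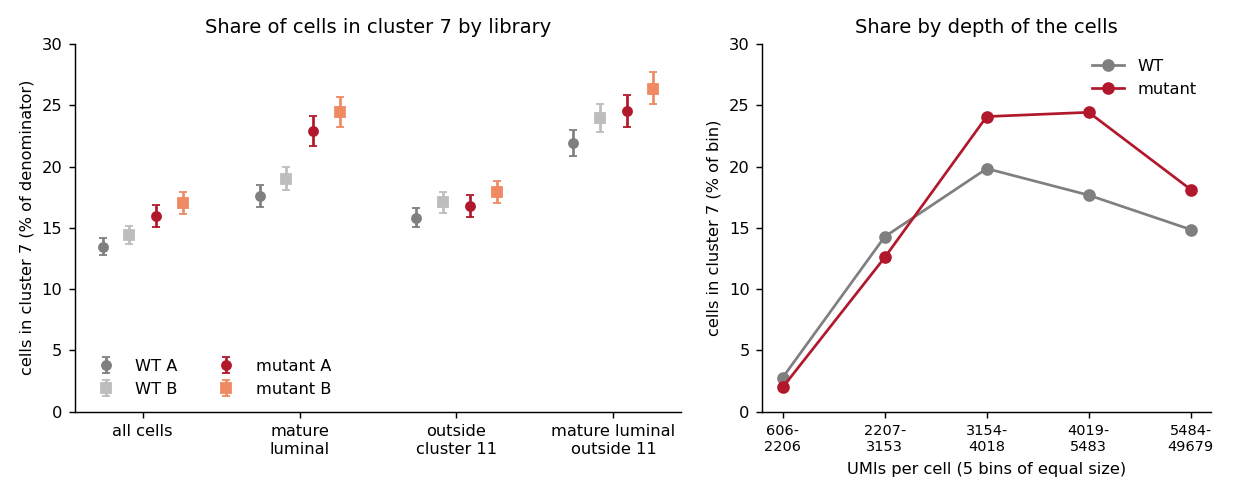
Left, cells of cluster 7 as a percentage of each library under 4 denominators, with exact 95% binomial intervals (counting error only). Right, the same share of all cells in 5 bins of UMIs per cell for WT and mutant: the mutant share was below that of WT in the 2 bins of lowest UMI number and above it in the other 3.

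The ratio also differed with the number of UMIs per cell. In 5 bins of like size it was 0.714 for cells of 606 to 2206 UMIs, 0.881 for 2207 to 3153, 1.21 for 3154 to 4018, 1.38 for 4019 to 5483 and 1.22 for 5484 to 49679 UMIs. Few of the cells with the lowest UMI numbers belonged to cluster 7 at all (2.78% of WT and 1.99% of mutant cells in that bin). With the bins of the mutant weighted as in WT, the ratio was 1.15. Genes that differ between the genotypes took part in drawing the clusters, so the cells were also clustered anew. The best matching cluster at a resolution of 0.6 shared 0.382 of the joint cells with cluster 7 (Jaccard index) and had a ratio of 1.05 (0.994 to 1.11). At a resolution of 1 the match was 0.386 and the ratio 0.969 (0.917 to 1.02). Without the 856 genes that met either of the rules given below, the match was 0.271, with 7344 cells, and the ratio 1.08 (1.03 to 1.12). None of these 3 rebuilds recovered cluster 7 as 1 group, and its size relative to WT differed with where its borders were drawn and with what it was divided by.

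The cells of cluster 7 bore the ML label on the marker genes. *Krt18*, a keratin of luminal cells, was detected in 99.8% of them after thinning to 1000 UMIs, and *Epcam*, a surface protein of epithelium, in 73.1% (79.2% of the other ML cells). *Kit*, which marks luminal progenitors (LP), was detected in 0.267% of them against 23.1% in the LP clusters 1 and 2. *Krt5*, a basal keratin, was detected in 0.0411%. The median depth before thinning was 4010.5 UMIs in cluster 7, 3636 in the other ML cells and 2039 in clusters 1 and 2. Summed over the 10 LP markers, the level in cluster 7 was 213 to 268 CPM (UMIs of a gene per 1000000 UMIs of the same cells) by library, against 25432 in cluster 1. The 10 immune markers summed to 4.47 to 9.96 CPM, the 6 endothelial markers to 2.05 to 3.20 and the 6 fibroblast markers to 3.78 to 5.83. Of the immune markers, *Ptprc* and *Cd3e* had no UMI in cluster 7, while the other 8 had UMIs (*Cd3g* 2, *Lyz2* 19, *Cd74* 64). The endothelial gene *Kdr* had none.

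None of the 4 marker genes given for the cluster met the rule given below against the rest of the ML cells. Against clusters 4 and 8 to 11 alone, 2 of the 13 listed ML markers were higher, *Upk3a* among them, and 1 was lower. The list includes these 4 markers, and over all genes the shares were 0.918% higher and 1.61% lower. *Prlr* (chr15:10177238-10349180, plus strand, GRCm38), the prolactin receptor, was at 1611 and 1789 CPM in the WT libraries and 1633 and 1739 CPM in the mutant libraries of cluster 7, with no separation of the genotypes. Its level in the other ML cells was 1929 to 2265 CPM, and cluster 7 ranked 6 of the 8 ML clusters, below clusters 4 and 8 to 11 and above the proliferating clusters 5 and 6. *Cited1* (chrX:102247381-102252181, minus strand), a transcriptional cofactor of the oestrogen receptor, was at 1532 and 1605 CPM in WT and 1113 and 1202 CPM in the mutant, and cluster 7 ranked 4. *Upk3a* (chr15:85017141-85022547, plus strand), a uroplakin of the apical membrane, was at 4617 and 4819 CPM in WT and 3156 and 3444 CPM in the mutant, against 2392 to 2659 CPM in the other ML cells of the 4 libraries. *Fgb* (chr3:83040141-83049863, minus strand), the fibrinogen beta chain, was at 1414 and 1539 CPM in WT and 893 and 951 CPM in the mutant, against 936 and 965 CPM (WT) and 594 and 644 CPM (mutant) in the other ML cells. *Upk3a* and *Fgb* were higher in cluster 7 than in the other ML cells of every library, by 0.68 and 0.57 on the log2 scale. Over all 4 libraries *Upk3a* was at 4006 CPM in cluster 7, 6666 CPM in cluster 5 and 6044 CPM in cluster 6. *Fgb* was at 1198 CPM in cluster 7 (95% interval 1184 to 1212), 1620 CPM in cluster 5 and 1203 CPM in cluster 6. These levels pool both genotypes, and since the log2 of mutant over WT of *Fgb* was -0.68 in cluster 7 and -0.40 in cluster 6, no order is read between clusters 6 and 7.

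After thinning, *Prlr* was detected in 77.2% of the cells of cluster 7, *Upk3a* in 64.9%, *Cited1* in 54.1% and *Fgb* in 38.3%. In the rare clusters 12 and 13, with a median of 1795 UMIs, the shares were 16.9%, 17.4%, 14.4% and 8.05%. The source of these UMIs (free RNA, doublets or the cells themselves) was not tested. The hormone receptors *Esr1* and *Pgr* differed from the other ML cells by -0.02 and 0.01 on the log2 scale. Cluster 7 thus lay within the ML range for the genes of hormone sensing. With the libraries pooled, *Upk3a* was the marker with the largest difference from the other ML cells, but in both mutant libraries *Fgb* differed more.

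Few genes were higher in cluster 7 than in the other ML cells and more were lower, among them 15 of the 16 listed genes of G2 and mitosis. A gene was counted if its fold was 1.5 or more in the same direction in each of the 4 libraries, with at least 50 UMIs on the side with more. These counts describe the cluster and are no test, since the cluster was drawn from the same values. Of 16019 genes, 55 were higher (0.343%) and 447 lower (2.79%). Cluster 7 was the highest of the 8 ML clusters for 46 of the 55 genes and the runner-up for the other 9, whereas it was the lowest for 75 of the 447.

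*Sprr1a*, a small proline-rich protein of the cornified envelope, was at 216 to 269 CPM in the libraries of cluster 7 and at 73.3 to 90.7 CPM in the other ML cells, with no overlap (log2 ratio 1.49, 1.44 to 1.54). *Thbs1*, the matricellular protein thrombospondin 1, was at 14.5 to 26.6 CPM against 4.59 to 9.33 CPM (1.88). *Cxcl12*, the chemokine ligand of CXCR4, was at 78.7 and 83.8 CPM in WT and 99.6 and 107 CPM in the mutant, against 23.7 to 43.6 CPM (1.55). All 3 were highest in cluster 7 among the ML clusters, but *Thbs1* was higher in the LP cluster 1, at 143 CPM.

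*Pcp4*, which encodes a regulator of calmodulin, was at 1783 and 1464 CPM in WT and 2653 and 2634 CPM in the mutant. The other ML cells were at 505 to 1135 CPM (log2 ratio 1.47). Over all libraries *Pcp4* was at 2136 CPM in cluster 7, 1382 CPM in cluster 8, 1082 CPM in cluster 4 and 95.8 CPM in cluster 11. The pooled ratio is thus not the ratio to each single cluster. *Igsf5*, which encodes a junctional adhesion protein, behaved alike, with 1467 and 1188 CPM in WT and 2212 and 2125 CPM in the mutant (1.5). The genes lie on the plus strand of chromosome 16 (*Igsf5* at 96361668-96422121, *Pcp4* at 96467606-96525793) and share no base in the annotation. The ratio of their UMIs was nevertheless 0.807 to 0.834 in the 4 libraries of cluster 7 and 0.810 to 0.824 in its sub-clusters, so they are treated here as 1 signal whose source gene is uncertain.

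Other genes of the higher side had few UMIs. *Slc16a3*, a lactate transporter, was at 4.86 to 8.83 CPM against 1.7 to 3.56 CPM, and *Ddit4l*, an inhibitor of mTOR signalling, at 12.2 to 22.9 CPM against 5.45 to 7.46 CPM. *Prr32* was at 5.91 to 11.1 CPM against 2.36 to 5.0 CPM. *Gsta1* rested on 54 UMIs and has close paralogs, so its counts are uncertain, and *Ifit1*, an interferon-induced gene, rested on 101 UMIs in 41 cells. The more abundant members of the fixed lists that met the rule were *Gsta4*, a glutathione transferase for lipid peroxidation products (306 and 309 CPM in WT, 672 and 632 CPM in the mutant, against 120 to 349 CPM), the kinase gene *Sgk1* (219 to 338 CPM against 126 to 215 CPM), the small heat shock gene *Hspb1* (472 to 671 CPM against 286 to 355 CPM) and *S100a14* (446 to 521 CPM against 244 to 334 CPM). For *Gsta4*, the WT libraries of cluster 7 lay below the mutant libraries of the other ML cells, so the higher level of cluster 7 holds only within a genotype.

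**Figure D2:**
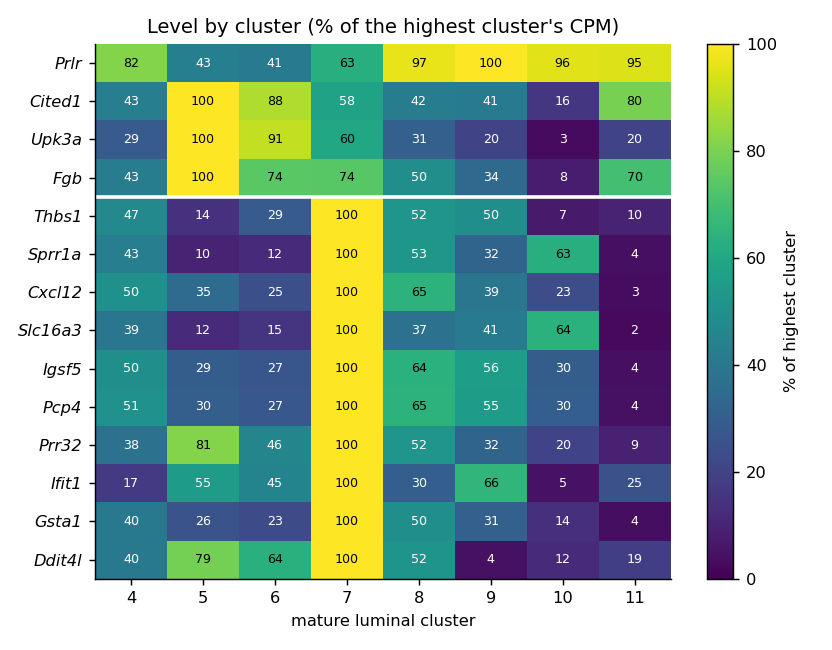
Level of the 4 marker genes and of the 10 named genes on the higher side (largest weakest-library fold) in the ML clusters 4 to 11, as a percentage of the cluster with the highest CPM of that gene. Cluster 7 is the highest for all 10 of the latter genes and for none of the markers.

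On the lower side, *Nusap1*, *Hmmr*, *Bub1*, *Plk1*, *Aurkb*, *Esco2*, *Ccnb1* and *Tpx2*, all of which act in mitosis or in the joining of sister chromatids, had log2 ratios of -3.76 to -4.90. The histone gene *Hist1h2ao*, which has near-identical copies, had -4.43. *Mki67*, a marker of cycling cells, was at 2.96 to 3.94 CPM in cluster 7 and at 27.6 to 38.1 CPM in the other ML cells. The other ML cells include the proliferating clusters 5 and 6, where *Mki67* was at 61.9 and 161 CPM, whereas cluster 10 was at 2.31 CPM and cluster 11 at 2.45 CPM. Of 16 genes of G2 and mitosis, 15 were lower in cluster 7, and of 15 genes of S phase 8 were lower. Against clusters 4 and 8 to 11 alone, 139 of 15139 genes were higher (0.918%) and 243 lower (1.61%), and no gene of either cell cycle list was lower, while 1 and 3 were higher. *Reg3b*, a secreted antimicrobial lectin, had no UMI in cluster 7 and 51 UMIs in 17 other ML cells, 9 of them in 1 cell. It was at least 4.89-fold lower, with the floor taken as 3 counts over the cluster.

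By their summed profiles, clusters 8 and 4 were the most like cluster 7. The profiles of log2 CPM over 16679 genes had a Pearson correlation of 0.992 with cluster 8 and 0.991 with cluster 4, which is given as a description of clusters that share libraries. Under the same rule, 39 genes were higher and 129 lower than in cluster 8, and 57 and 234 than in cluster 4. Against cluster 10 the counts were 513 and 211. Cluster 8 stood apart by its mitochondrial RNA, which summed to 10249 CPM, against 2231 to 2602 CPM in the libraries of cluster 7 and 2106 to 6231 CPM in the remaining ML clusters. Of the 26 tested genes of the mitochondrial genome, 8 were lower in cluster 7, and their sum was 3157 CPM in the other ML clusters once cluster 8 was left out.

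The remaining lists held 0 to 2 higher genes each, to be read against 0.343% higher and 2.79% lower over all genes, and the median log2 ratio of all 16019 genes was -0.0051. Among 14 tested interferon-stimulated genes, *Ifit1* and *Isg15* were higher and none lower, with a list median of 0.49. Of 13 tested FOXO targets *Sgk1* was higher, of 11 heat shock genes *Hspb1*, and of 22 genes of glutathione and peroxide defence *Gsta4*. Of 9 tested S100 genes *S100a14* was higher, and of 4 tested progesterone-induced signals *Cxcl12*. The lists were chosen with earlier results of these data known, so such members are no test of a list. Of 18 tested genes of chemokines and mucosal defence, *Cxcl12* and *Slpi*, a protease inhibitor of secretions, were higher and *Cxcl17*, a mucosal chemokine, was lower (19 to 23.3 CPM against 52.5 to 101 CPM). *Spry2*, a feedback inhibitor of ERK signalling, was lower (15.2 to 18.3 CPM against 35.0 to 44.2 CPM), as were *Notch2* (-1.46), the uroplakin-like gene *Upk3bl* (-0.93) and 3 of 7 tested basal markers, *Acta2*, *Tagln* and *Cnn1*, all at 6.57 CPM or less in cluster 7. Of the 10 markers of proliferating cells 8 were lower. No gene met the rule among the 13 ML markers, the 10 LP markers, 13 hormone receptors and cofactors, 9 genes of the STAT5 axis, 8 tested ErbB receptors and ligands, 6 tested genes of fibrinogen and clotting, 17 tested luminal transcription factors, 6 keratins of simple epithelium, 4 tested milk proteins, 11 cyclins and CDK inhibitors, 15 immediate early genes, 15 tested genes of antigen presentation, 18 genes of ER folding, 16 of lipid synthesis, 15 of junctions, 7 tested of the IGF axis and 82 tested ribosomal proteins. Some of these calls depend on clusters 5 and 6. Against clusters 4 and 8 to 11 alone, 2 ML markers were higher and 1 lower. In that comparison 1 gene of fibrinogen and clotting and 2 cyclins and CDK inhibitors were also higher (0.918% higher and 1.61% lower over all genes).

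Cluster 7 was not uniform, and its marker genes divided it. Clustered on their own, its cells fell into 6 sub-clusters, which are described by number and leading genes and were drawn from the values that describe them. Sub-clusters 2 and 3 carried most of the *Upk3a*, *Cited1* and *Fgb* signal. *Upk3a* was at 7504 and 6784 CPM there, against 2152 CPM in sub-cluster 1 and 554 CPM in sub-cluster 4. *Cited1* was at 2529 and 1936 CPM against 874 and 331 CPM, and *Fgb* at 2468 and 1817 CPM against 590 and 277 CPM. *Pcp4* was highest where those genes were lowest, with 5718 CPM in sub-cluster 4, 2364 in sub-cluster 1, 788 in sub-cluster 2 and 555 in sub-cluster 3, while *Prlr* stayed between 1281 and 1923 CPM in these 4.

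**Figure D3:**
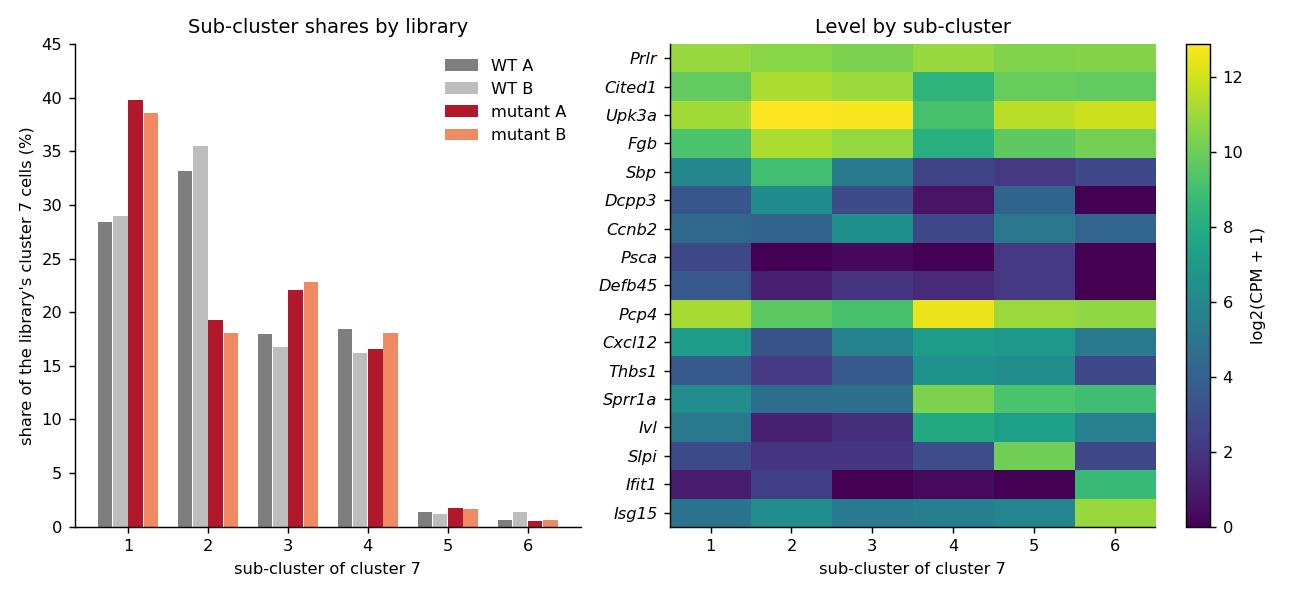
Left, share of the cells of cluster 7 in each of its 6 sub-clusters by library. Right, log2 of CPM plus 1 of 17 genes in each sub-cluster: *Upk3a*, *Cited1* and *Fgb* are highest in sub-clusters 2 and 3, *Sprr1a* and *Pcp4* in sub-cluster 4.

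Sub-cluster 1 (1635 cells) was led by *Psca*, which encodes a surface protein anchored in the membrane, the adaptor gene *Lat2* and the beta-defensin gene *Defb45*, all under 11 CPM, and by the mucin gene *Muc13*. A high doublet score was given to 8.20% of its cells, against 1.14% to 1.46% in sub-clusters 2 to 4, and its median of 4856 UMIs was the highest of the 6. The part of these values in its profile was not tested. Sub-cluster 2 (1315 cells) was led by *Sbp*, the gene of a secreted spermine-binding protein, at 503 CPM against 44.1 CPM in the rest of cluster 7, with *Dcpp3*, the kynureninase gene *Kynu* and the prostaglandin E2 receptor gene *Ptger3*. *Sbp* and *Dcpp3* have close paralogs among which counting may be uncertain. Sub-cluster 3 (961 cells) was led by the mitotic genes *Ccnb2* (88.5 against 16.9 CPM), *Cdca3* and *Spc24* and by *Fmo1*, but *Mki67* was at 6.74 CPM in it, which is below the levels of clusters 5 and 6 given above. Sub-cluster 4 (844 cells) was led by genes of the cornified envelope, *Sprr2a3*, *Sprr1a* (1292 against 64.6 CPM) and the involucrin gene *Ivl* (228 against 20.8 CPM), and held 76.7% of the *Sprr1a*, 62.0% of the *Slc16a3* and 60.5% of the *Thbs1* UMIs of cluster 7.

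The smallest groups were set by few genes. Sub-cluster 5 (73 cells) was led by *Slpi*, at 1093 CPM against 5.13 CPM in the rest, and held 73.6% of its UMIs in cluster 7. Sub-cluster 6 (40 cells) was led by the interferon-stimulated genes *Ifit1*, *Cxcl10* and *Isg15* (1894 against 44.4 CPM), and it held 68.3% of the *Ifit1* and 24.3% of the *Isg15* UMIs. The higher level of *Ifit1* and *Slpi* in cluster 7 thus rested mostly on 40 and 73 cells.

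Detection of *Upk3a* and *Pcp4* was also compared cell by cell, after thinning. *Pcp4* was detected in 28.4% of the cells with a UMI of *Upk3a* and in 46.0% of those without. *Fgb* was detected in 49.6% of the cells with *Upk3a* and in 17.3% of those without, and *Cited1* in 66.9% and 30.4%. The difference between cells with and without *Upk3a* had the same direction in every library, for *Pcp4* with 25.3% and 44.8% in WT A, 24.8% and 36.0% in WT B, 33.5% and 52.1% in mutant A and 32.0% and 50.8% in mutant B.

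The sub-clusters also bordered on different clusters. Among the 20 nearest neighbours of a cell of cluster 7 in the space of all cells, a median of 15 were of cluster 7, and 69.1% of all neighbours were. The rest lay mainly in clusters 10 (7.65%), 11 (6.77%), 8 (6.01%) and 5 (5.18%), which held 14.1%, 10.9%, 9.05% and 4.57% of all cells. Of these 4, cluster 5 alone gave more neighbours than its share of cells. Cluster 4, next after cluster 8 in likeness by summed profile, gave 3.15% of the neighbours and held 11.4% of all cells. For sub-cluster 1, 15.8% of the neighbours were of cluster 10. Cluster 11 gave 13.2% of the neighbours of sub-cluster 2, and cluster 5 gave 10.5% of those of sub-cluster 3. Cluster 11 gave 8.49% of the neighbours of WT cells and 4.81% of those of mutant cells. The number of cells in cluster 11 and the share of sub-cluster 2 were both lower in the mutant, and their part in this was not tested.

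The make-up of cluster 7 also differed between the genotypes. Sub-cluster 2, with the highest *Upk3a* and *Fgb*, took 33.2% and 35.5% of the cells of cluster 7 in the WT libraries, against 19.3% and 18.1% in the mutant libraries, a ratio of 0.544 (0.492 to 0.602). Sub-cluster 1 took 28.4% and 28.9% in WT, against 39.8% and 38.6% in the mutant (1.36, 1.26 to 1.48), and sub-cluster 3 took 17.9% and 16.8% in WT, against 22.0% and 22.8% in the mutant (1.29, 1.16 to 1.45). In these 3 sub-clusters the libraries of the genotypes did not overlap. Depth moved with these shares, since the median cell had 4856 UMIs in sub-cluster 1, 4276 in sub-cluster 3 and 3535 in sub-cluster 2, and 4314 in the mutant against 3736 in WT, and its part in them was not tested. Sub-cluster 4 took 18.5% and 16.2% in WT, against 16.6% and 18.1% in the mutant, which overlapped (1.00, 0.887 to 1.13). Rebuilt without the 380 genes that differed between the genotypes by the rule below, the 4 groups had ratios of 0.535 for the match of sub-cluster 2 (Jaccard index 0.763), 1.31 for that of sub-cluster 1 (0.710), 1.21 for that of sub-cluster 3 (0.665) and 0.975 for that of sub-cluster 4 (0.411). *Upk3a* and *Cited1*, which were lower in both mutant libraries but below the fold of 1.5, remained in this rebuild, so genes that differ between the genotypes still helped to draw its groups.

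*Erbb3* itself (chr10:128567523-128589652, minus strand) was lower in the mutant cells of cluster 7, at 56.3 and 60.4 CPM in WT and 25.9 and 28.5 CPM in the mutant, with no overlap (log2 of mutant over WT -1.10, -1.30 to -0.90). In the other ML cells it was at 59.9 and 61.3 CPM in WT and 27.5 and 28.6 CPM in the mutant. The other ML cells differ in make-up between the genotypes, with 2863 of 11595 cells from cluster 11 in WT and 670 of 7337 in the mutant. The part of this in the genotype folds given for them was not tested. The *Erbb3* counts do not read the V943R substitution, so they are no check of the genotype, and the source of the lower level was not tested. *Erbb2*, the partner receptor, was at 37.1 and 44.0 CPM in WT and 37.0 and 40.8 CPM in the mutant, and the genotypes overlapped.

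Within cluster 7, a gene was counted as different between the genotypes if its fold was 1.5 or more in summed CPM, at least 50 UMIs stood behind the greater level, and neither mutant library lay within or across the range of the WT libraries. Of 11047 genes, 266 were higher in the mutant (2.41%, 171 of them predicted genes) and 114 lower (1.03%, 19 of them predicted). With 1 library left out the counts ran from 171 (without mutant library A) to 472 (without WT library A) and from 97 (without WT library B) to 266 (without mutant library B). Nearest to the fold of 1.5, *Ndrg1* (log2 0.59) and *Zfp707* (-0.59) were counted and *Upk3bl* (0.58) and *Pdgfc* (-0.58) were not. The same rule called 163 to 276 genes higher in each of clusters 4, 5, 6, 8, 10 and 11 (1.95% to 2.70% of the genes with enough UMIs). In the small cluster 9 it called 63 of 2342 (2.69%). On the lower side it called 91 to 139 genes in clusters 4, 5, 6, 8 and 10 (1.07% to 1.41%). The count was 324 of 10223 (3.17%) in cluster 11 and 67 of 2342 (2.86%) in cluster 9. The libraries of a genotype differed in cluster 7 by more than counting error (the chi-square per degree of freedom between them was 1.69 for WT, over 14903 genes, and 1.95 for the mutant, over 15164 genes).

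**Figure D4:**
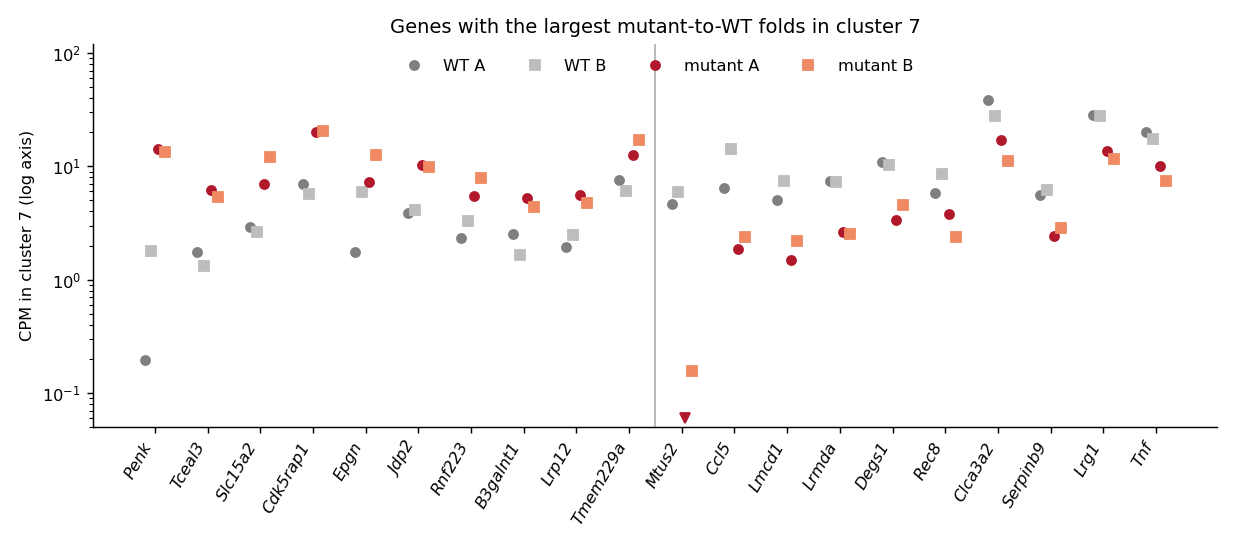
Level in CPM, on a log axis, of the 10 named genes with the largest folds in each direction between the genotypes in cluster 7, with 1 point per library. The 2 mutant points lie beyond the 2 WT points for every gene by the rule, and a triangle at the bottom marks *Mtus2* in mutant library A, which is listed at 0.

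The largest fold on the higher side, that of *Penk*, rested on very few cells. *Penk*, which encodes the precursor of the enkephalins, was at 0.194 and 1.81 CPM in WT and 14.3 and 13.4 CPM in the mutant (log2 3.69, 2.85 to 4.67). Its 161 mutant UMIs came from 17 cells, 49 of them from 1 cell, and its 12 WT UMIs from 7 cells. In the other ML cells *Penk* was at 1.45 and 5.18 CPM in WT and 3.85 and 4.2 CPM in the mutant, and the genotypes overlapped.

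The other genes of the higher side were spread over more cells, at low levels. *Cdk5rap1*, a modifier of mitochondrial transfer RNA, was at 6.99 and 5.75 CPM in WT and 19.9 and 20.5 CPM in the mutant (1.68, 1.29 to 2.08), with UMIs in 68 WT and 222 mutant cells. *Slc15a2*, a peptide transporter, was at 2.91 and 2.63 CPM in WT and 6.95 and 12.1 CPM in the mutant (1.83). *Epgn*, the EGF receptor ligand epigen, was at 1.75 and 5.91 CPM in WT and 7.33 and 12.5 CPM in the mutant (1.34, 0.83 to 1.87), and 42.9% of its UMIs fell in each of sub-clusters 1 and 4 and none in sub-cluster 2. *Tceal3* (1.93), *Jdp2*, a repressor of the AP-1 family (1.33), *Rnf223* (1.25), *B3galnt1*, an enzyme of glycolipid synthesis (1.23), *Lrp12* (1.21) and *Tmem229a* (1.16) completed the 10 genes. The folds of *Cdk5rap1*, *Slc15a2*, *Epgn* and *Rnf223* in the other ML cells of the same libraries were 1.52, 1.58, 1.5 and 1.43 on the log2 scale, and those of *Tceal3*, *Jdp2*, *B3galnt1* and *Tmem229a* were 1.09, 0.84, 0.42 and 0.69.

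On the lower side, *Mtus2*, which encodes a microtubule-associated protein, had 60 UMIs in 54 WT cells and 1 UMI in the mutant cells (-5.96, -11.29 to -3.43), and was lower in the other ML cells as well (-4.02). *Ccl5*, a chemokine made by T cells among others, was at 6.41 and 14.3 CPM in WT and 1.88 and 2.37 CPM in the mutant (-2.32), but 66 of its 120 WT UMIs came from 1 cell. The immune markers of cluster 7 stood at the low sums given above, with 8 of the 10 detected, and their part in the *Ccl5* level was not tested. *Lmcd1*, a LIM domain cofactor, was at 5.05 and 7.39 CPM in WT and 1.5 and 2.21 CPM in the mutant (-1.74), and 65.6% of its UMIs fell in sub-cluster 2. *Lrg1*, a secreted leucine-rich glycoprotein, was at 28.2 and 27.8 CPM in WT and 13.7 and 11.7 CPM in the mutant (-1.15, -1.44 to -0.86). *Tnf*, the inflammatory cytokine, was at 20.2 and 17.4 CPM in WT and 10.1 and 7.41 CPM in the mutant (-1.11, -1.47 to -0.76), and cluster 7 had the highest *Tnf* level of the ML clusters. *Lrmda* (-1.5), *Degs1*, a desaturase of ceramide synthesis (-1.39), the meiotic cohesin gene *Rec8* (-1.28), *Clca3a2* (-1.25) and *Serpinb9*, an inhibitor of granzyme B (-1.17), completed the 10 genes. In the other ML cells the log2 folds were -0.26 for *Serpinb9*, -0.64 for *Tnf*, -1.49 for *Lrg1* and -1.29 for *Lmcd1*.

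Of the 4 markers, *Fgb* met the rule (-0.68, -0.72 to -0.65), as did the gamma chain gene *Fgg*, at 398 and 422 CPM in WT and 263 and 250 CPM in the mutant (-0.68). *Upk3a* and *Cited1* were lower in both mutant libraries but below the fold of 1.5 (-0.51 and -0.44), and *Prlr* differed by -0.01. In the other ML cells the log2 folds were -0.62 for *Fgb*, -0.94 for *Fgg*, -0.09 for *Upk3a* and -0.47 for *Cited1*. In single ML clusters other than 7, the fold of *Upk3a* ran from -0.72 in cluster 11 and -0.29 in clusters 4, 5 and 6 to -0.05 in cluster 10. Whether the folds differ between the clusters was not tested.

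Among the lists, the median log2 ratio of mutant over WT over all 11047 genes was -0.017. Of 8 tested ErbB receptors and ligands, *Epgn* was higher and *Erbb3* lower, while *Areg*, the gene of amphiregulin (0.28), *Btc* (0.45) and *Hbegf* (-0.43) did not meet the rule. *Egfr* and *Erbb4* had 3 and 2 UMIs in all of cluster 7. Of 11 tested FOXO targets *Rgs2*, a regulator of G protein signalling, was higher (0.96). It was at 49.1 and 50.4 CPM in WT and 96.0 and 97.8 CPM in the mutant, and *Sgk1* was at 0.57, just under the fold. The median of this list was 0.014. Its members were chosen with earlier results of these data known, so *Rgs2* and *Sgk1* are no test of the list. *Spry1* was higher (0.82) among 12 tested ERK feedback genes, *Irs1*, a docking protein of insulin signalling, among 4 tested genes of the IGF axis (0.71), *Greb1*, an oestrogen target, among 13 hormone receptors and cofactors (0.59), *Gsta4* among 20 tested genes of glutathione and peroxide defence (1.08) and *Birc5*, a survivin gene of the mitotic spindle, among 9 tested genes of G2 and mitosis and 8 tested markers of proliferating cells (0.64). *Slpi* was higher (1.08) and *Ltf*, the gene of lactoferrin, lower (-0.64) among 14 tested genes of mucosal defence, and *Ltf* was also the 1 of 8 tested LP markers that was lower. Of the 13 ML markers, *Fgb* was the 1 that was lower.

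*Irf7*, a regulator of interferon genes, was the 1 of 14 tested interferon-stimulated genes that was lower (14 and 17.9 CPM in WT, 7.89 and 9.46 CPM in the mutant, -0.88), and the list median was -0.31. Of the *Irf7* UMIs of cluster 7, 38.5% fell in sub-cluster 2 and 17.3% in sub-cluster 6, which held 26 WT and 14 mutant cells. The list of ribosomal proteins had a median of 0.25, with 1 of 80 tested genes higher. No gene met the rule in either direction among 13 tested genes of S phase, 9 of the STAT5 axis, 4 tested progesterone-induced signals, 15 tested luminal transcription factors, 15 immediate early genes (median -0.20), 11 heat shock genes, 10 tested genes of antigen presentation (median -0.21), 18 of ER folding, 14 tested of lipid synthesis, 15 of junctions, 7 tested S100 genes, 8 tested Notch genes, 3 tested uroplakins, 4 tested keratins, 8 tested cyclins and CDK inhibitors and 17 tested genes of the mitochondrial genome. Of the 11 genes that the study names for cluster 11, *Wdfy1* was higher (0.61) and *Fgb* and *Fgg* were lower in the mutant cells of cluster 7. Of the 5 tested genes of fibrinogen and clotting, 2 were lower (*Fgb* and *Fgg*). The other tested members, *Plaur* (0.38), *Serpine2* (-0.14) and *F3* (0.19), did not meet the rule. This list was also chosen with earlier results of these data known, and *Fgb* is itself a marker of the cluster. *Fgb* and *Fgg* are therefore no test of the list. All these list counts are 0 to 2 genes in a direction, beside 2.41% higher and 1.03% lower over all genes, and no list was tested.

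The genotype values were then taken within each sub-cluster, an alternative added after the data had been seen, since the mutant held fewer cells of sub-cluster 2. *Erbb3* was lower in the mutant in each of sub-clusters 1 to 4 (-1.07, -0.78, -1.40 and -1.22 on the log2 scale), and *Gsta4* was higher in each (1.19, 1.2, 0.86 and 0.99). The marker genes varied between the sub-clusters. *Fgb* was at -0.36, -0.59, -0.22 and -0.82, *Upk3a* at -0.17, -0.52, -0.18 and -0.64, and *Cited1* at -0.32, -0.15, -0.21 and -0.37. For *Cited1* in sub-cluster 4 the libraries of the genotypes overlapped (303 and 437 CPM in WT, 253 and 318 CPM in the mutant). *Pcp4* was higher in sub-cluster 1 (0.90), with 1633 and 1527 CPM in WT and 3029 and 2866 CPM in the mutant, and in sub-cluster 4 (0.48), while in sub-clusters 2 and 3 (0.09 and 0.21) the libraries of the genotypes overlapped. Whether the sub-clusters differ in this was not tested. *Sbp*, the leading gene of sub-cluster 2, was at -0.07 within it. Its libraries spread widely there, with 692 and 367 CPM in WT and 657 and 336 CPM in the mutant, and the genotypes overlapped.

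**Figure D5:**
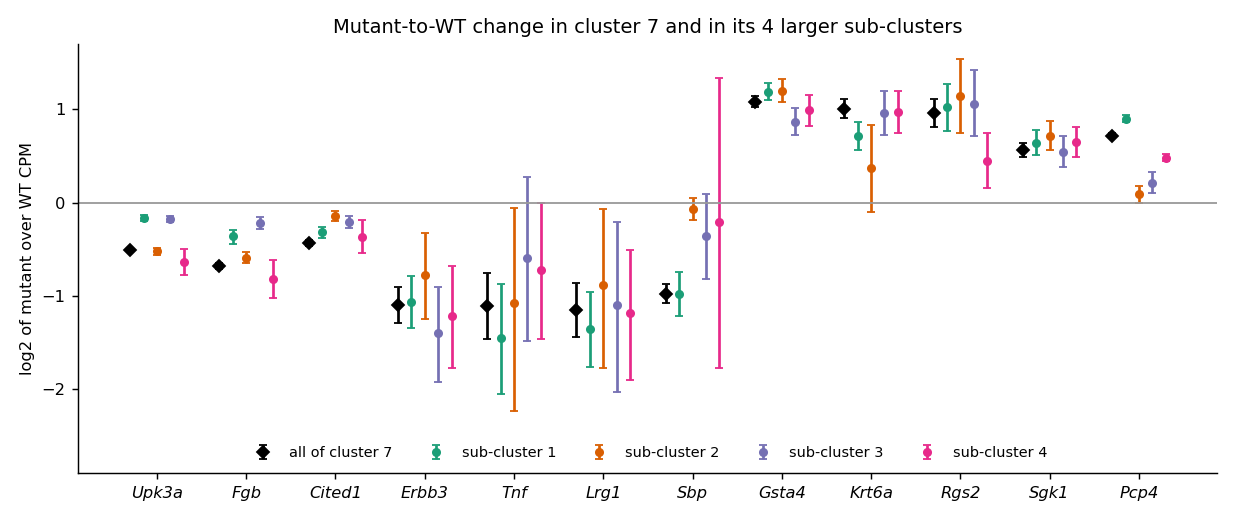
Log2 ratio of mutant over WT with 95% intervals (counting error only) for 12 genes in all of cluster 7 and in its sub-clusters 1 to 4. *Erbb3* lies below 0 and *Gsta4* above 0 in every sub-cluster, whereas *Sbp* lies near 0 in the sub-cluster that it leads.

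With the sub-clusters of the mutant weighted as in WT, the fold of *Fgb* was -0.45 in place of -0.68, that of *Upk3a* -0.34 in place of -0.51, that of *Cited1* -0.20 in place of -0.44 and that of *Sbp* -0.20 in place of -0.98. *Erbb3* stayed at -1.06 and *Gsta4* at 1.11. Of the genes counted above, 203 of 266 and 79 of 114 kept a fold of 1.5 under these weights. Among the named genes, *Fgb*, *Fgg* (-0.52), *Irf7* (-0.40), *Irs1* (0.55), *Greb1* (0.36), *Birc5* (0.51), *Slc16a3* (0.57), *Igsf5* (0.58) and *Pcp4* (0.58) no longer reached it. The sub-clusters were drawn from these same values, with *Upk3a*, *Fgb* and *Cited1* among the genes that set them apart, so a smaller fold of such genes under the weights follows in part from that choice and is no test.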

How the data were processed

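The deposited values are a signal per gene (52636) and cell (32439), which the values show to be whole numbers times a factor of each cell's own (the authors' scaling step is not given in the sources used here), and the table also names each cell's library, genotype, cluster and class. The submitters' processing notes name CASAVA 1.8, bcl2fastq 2.20, GSNAP and GRCm38, and the paper names Partek Flow and Seurat at a resolution of 0.6. The deposited signal was divided by the lowest value above 0 in that cell and rounded, and each cell's factor was then refitted from all of its values. With the refitted factor, 100% of 60853305 nonzero values lay within 0.02 of a whole number. The whole numbers were taken as UMIs, and CPM values were computed from their sums over cells. Depth was 30019745 to 38009351 UMIs per library. Cells carry a library name but no replicate number, so libraries are called A and B.

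Because cells of 1 pool are not replicates, no count model was fitted and no p-value computed. Log2 ratios have exact conditional binomial, shares exact (Clopper-Pearson) and ratios of shares log-normal 95% intervals. Sub-clusters were drawn by the Leiden method (2000 variable genes, 20 components, 20 neighbours, resolution 0.5), and all cells were clustered anew with 30 components. No cell was left out of the shares and summed values. Thinning left out 12 WT and 74 mutant cells of the other ML clusters and 0 cells of cluster 7. The doublet caller scrublet marked too few cells to be of use, so no doublet was removed, but results were repeated without the 6% of cells with the highest scrublet score. Named are the 4 markers, the 10 genes of largest fold per direction and rule (for the cluster, by the weakest of the 4 library folds, and with predicted genes passed over), list members that met a rule, and genes the study names. Other genes named (leading genes of sub-clusters, further members of the lists) were chosen after their values were seen. The cluster, its markers, the lists and the rules were chosen with earlier results of these data known. Gene positions are those of GENCODE mouse release 21 for GRCm38. Scanpy 1.11.5, leidenalg 0.10.2, scikit-learn 1.9.0, scipy 1.17.1, pandas 2.3.3, numpy 2.4.6 and matplotlib 3.10.9 were run under Python 3.11.15.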

Additional observations from a re-analysis of the deposited data

Results flagged for a closer look

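In 2 of the named genes with at least 50 UMIs in a genotype, the cells of cluster 7 and the other ML cells differed in the direction of the genotype fold in all libraries. *Lrp12*, a receptor of the LDL receptor family, was higher in the mutant in cluster 7 (log2 1.21, 0.51 to 1.94), with 1.94 and 2.46 CPM in WT and 5.64 and 4.73 CPM in the mutant, while the other ML cells had 3.23 and 3.23 CPM in WT and 3.13 and 2.59 CPM in the mutant (-0.18, -0.56 to 0.20). *Tyms*, thymidylate synthase, had a fold of -0.10 (-0.39 to 0.19) in cluster 7 and of 0.14 (0.03 to 0.24) in the other ML cells. Both are given here because every library of 1 genotype lay on the opposite side in the 2 sets of cells, and the difference between the sets was not tested. The interval of *Tyms* in cluster 7 and that of *Lrp12* in the other ML cells include 0. The proliferating clusters 5 and 6 gave 818 and 974 of the 11595 other ML cells in WT and 666 and 828 of the 7337 in the mutant. The part of this shift in the *Tyms* fold was not tested. *Cnn1*, with 8 UMIs in cluster 7 (2.75, against -0.59 in the other ML cells), and *Fabp4*, with 41 UMIs (-0.26, against 0.12), also had opposite directions but fell short of that number of UMIs. Of the genes named only for a sub-cluster, *Ptger3* also had opposite directions in all libraries (-0.32, against 0.26), whereas *Sbp* (-0.98, against 0.07) had overlapping genotypes in the other ML cells.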

How the results depend on the processing

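The share of cluster 7 in the mutant relative to WT was 1.18, and 1.14 to 1.23 with 1 library left out. It was 1.30 among ML cells, 1.05 outside cluster 11, 1.11 among ML cells outside cluster 11 (chosen after seeing the data), 1.05 for clusters rebuilt at a resolution of 0.6, 1.08 for those rebuilt without the called genes, and reversed at 0.969 for clusters rebuilt at a resolution of 1. The cause was not tested. It was 1.19 without the 10% of cells with the fewest UMIs, 1.21 without cells of high doublet score, and 1.18 without shared barcodes. The 266 genes higher in the mutant became 171 without mutant library A and 472 without WT library A, which bounds the range with 1 library left out, 595 with a minimum of 20 UMIs and 150 with 100. The 114 lower genes became 97 to 266 with 1 library left out (266 without mutant library B, 187 without mutant library A), 342 with 20 UMIs and 49 with 100. The 55 genes higher in cluster 7 than in the other ML cells became 62 to 82 with 1 library left out and 139 without clusters 5 and 6, and the 447 lower genes 518 to 523 and 243. Of 711 log2 values of 119 named genes under the alternatives for the genotypes, 89 moved outside the counting interval. Of 714 values for the cluster, 133 did. Reversals were counted only for genes that met the rule, and there were 0 in both sets. With 1 library left out, the rules largely fix the sign of such genes, so this 0 is no sign of stability. The 711 values leave out the weighting of the sub-clusters. Under it *Isg15*, not counted as different between the genotypes, went from -0.28 to 0.10, and 4 other uncounted genes between -0.02 and 0.04 also changed sign. No paired analysis was possible because the cells carry no replicate number and the values come from no test. Depth limits the genes with few UMIs, and 1 pool of mice per genotype limits every comparison of genotypes.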
